A study of Drosophila melanogaster with 8 samples.

Results

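The vacuolar H+-ATPase (V-ATPase) genes of Drosophila melanogaster were followed through 8 poly(A)+ RNA-seq libraries of testis cells. The members were the rows of the deposited gene table whose symbol begins with Vha, which gave 32 of 16018 genes. All 32 passed the filter on low counts (at least 1 CPM in at least 2 libraries), which kept 12570 genes. They were divided, from general knowledge of the fly gene families, into 17 broadly used subunits, 7 paralogs known for testis-enriched expression and 8 other paralogs. The division was made with earlier results of these data known. All libraries came from testes, so tissue specificity itself was not measured.

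The V-ATPase is a rotary proton pump that spends ATP to acidify lysosomes, endosomes and secretory vesicles. In some epithelia, the Malpighian tubule of the fly among them, it sits in the plasma membrane and powers ion transport. Its cytosolic V1 sector holds the A and B subunits of the catalytic head, the D and F subunits of the central stalk, the E and G subunits of the peripheral stalks, and C and H, which act in assembly and regulation. Its membrane V0 sector holds the ring of c and c" subunits, the a subunit with the proton path, d, which links stalk and ring, and the small e subunit. Several subunits are encoded by more than a single fly gene, and some of the extra copies are known as testis-enriched.

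The libraries fell into 4 groups of 2. The tj sorted group held GFP-positive cells taken by fluorescence-activated sorting from testes of tj-GAL4 x UAS-GFP flies, and the tj unsorted group held the whole cell suspension from testes of that genotype. The eya sorted group held GFP-positive cells from testes of eya-GAL4 x UAS-GFP flies, and the eya unsorted group held the unsorted suspension of the same genotype. All groups thus carried UAS-GFP and a GAL4 driver, and no group was free of both. The gene tj encodes the transcription factor Traffic jam of early cyst cells, and eya encodes Eyes absent of mature cyst cells, the somatic cells that enclose the developing germline. Sorting selected any testis cell in which the driver was active. The libraries are labelled as biological replicates, with no age of the flies and no number of testes pooled, so p-values measure the spread between these preparations. The eya unsorted libraries are numbered 3 and 4 here, after the table's headers.

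The 8 libraries held 10771009 to 25344721 gene counts each. Levels are CPM, each library's counts rescaled to a common total by its gene counts and the TMM factor, and levels of different genes are compared only as CPM per kilobase of the deposited gene length. Of the defining cyst cell markers, 3 of 6 early and 3 of 4 mature ones were called higher in sorted cells in both the tj and the eya comparison. Of the same lists, 0 early and 1 mature marker were called lower in tj sorted cells, and 2 early and 1 mature marker in eya sorted cells. The library tj unsorted 2 stood apart from the other unsorted libraries. Its 7 gut and Malpighian tubule markers summed to 3053 CPM, against 116 CPM in tj unsorted 1 and 158 and 52.3 CPM in eya unsorted libraries, and its 5 fat body markers summed to 401 CPM, against 44.1 to 96.2 CPM in the other unsorted libraries. All markers of both lists had reads in all 8 libraries. The midgut proteases alphaTry and Jon65Aiii reached 1036 and 1469.7 CPM in tj unsorted 2. Uro, from the same list as these proteases, was not raised there. It had 2.36 CPM, against 2.49 CPM in tj unsorted 1 and 7.97 and 2.80 CPM in eya unsorted libraries. Every other marker of the gut and tubule list was higher in tj unsorted 2 than in any other unsorted library. The main edgeR results that rest on this library are therefore given with and without it.

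**Figure D1:**
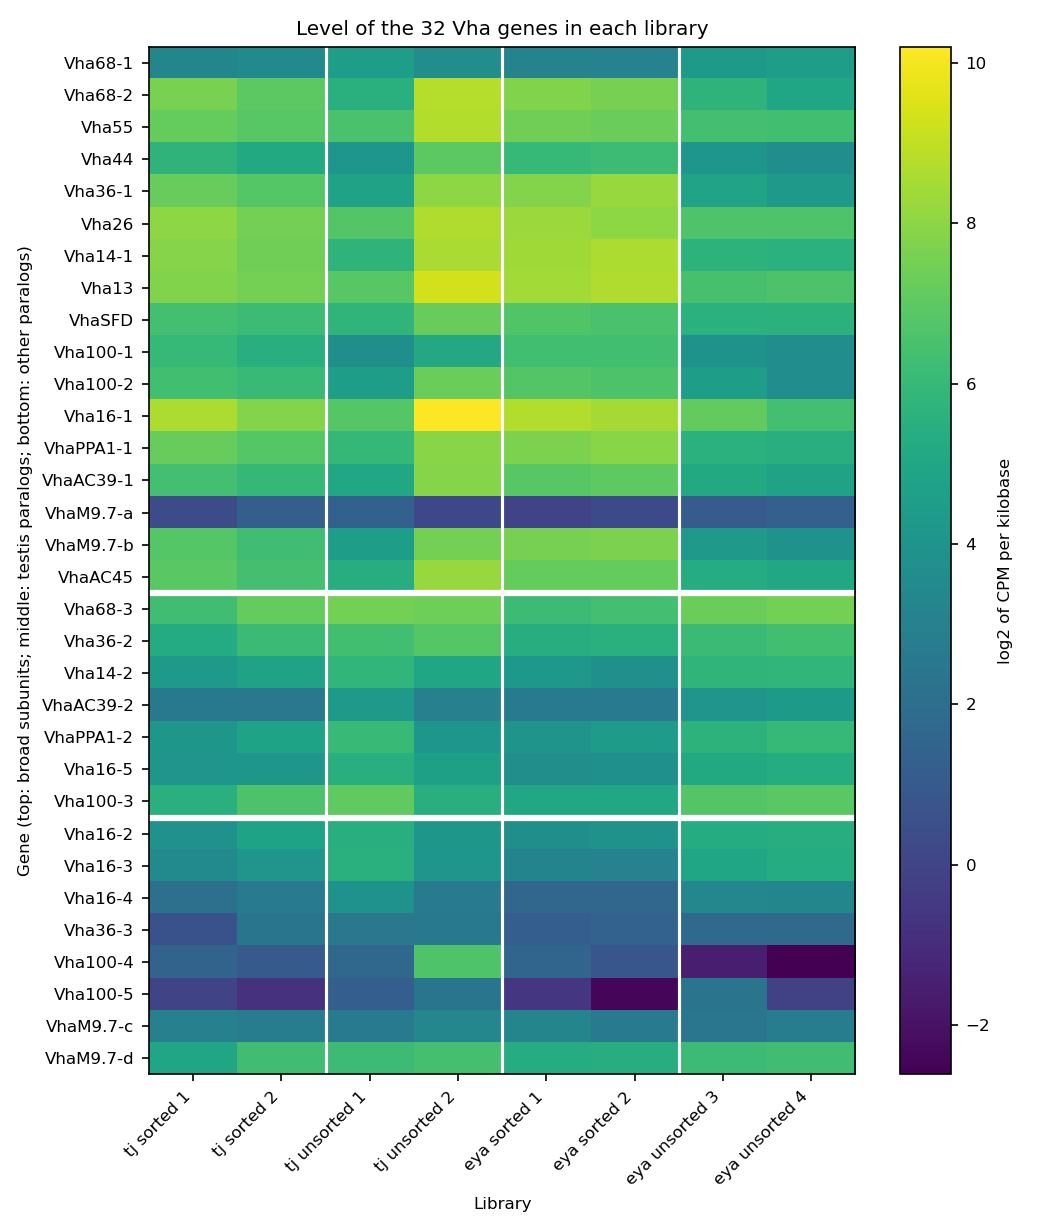
Level of each of the 32 Vha genes (rows) in each of the 8 libraries (columns), as log2 of CPM per kilobase. Most broad subunits of tj unsorted 2 stand above those of the other unsorted libraries, while Vha68-1 and VhaM9.7-a stand below them. In Vha100-4 the same library is the highest of all.

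Summed over the 17 broad subunits, the level was 2354 and 1694 CPM per kilobase in tj sorted libraries, against 845 and 5169 CPM per kilobase in tj unsorted libraries. The same sum was 3029 and 3141 CPM per kilobase in eya sorted libraries, against 816 and 692 CPM per kilobase in eya unsorted libraries. The 7 testis paralogs summed to 222 and 392 CPM per kilobase in tj sorted libraries, against 582 and 403 CPM per kilobase in tj unsorted libraries. They summed to 203 and 217 CPM per kilobase in eya sorted libraries, against 500 and 567 CPM per kilobase in eya unsorted libraries. Broad subunits thus outweighed the testis paralogs in every library, but by unequal margins. The ratio of testis paralogs to broad subunits was 0.0669 and 0.0692 in eya sorted libraries, against 0.613 and 0.819 in eya unsorted libraries. It was 0.0942 and 0.231 in tj sorted libraries, against 0.688 and 0.0780 in tj unsorted libraries, so that tj unsorted 2 lay with the sorted libraries. In bulk RNA of this kind, fewer cells of a type and less RNA per cell cannot be told apart.

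**Figure D2:**
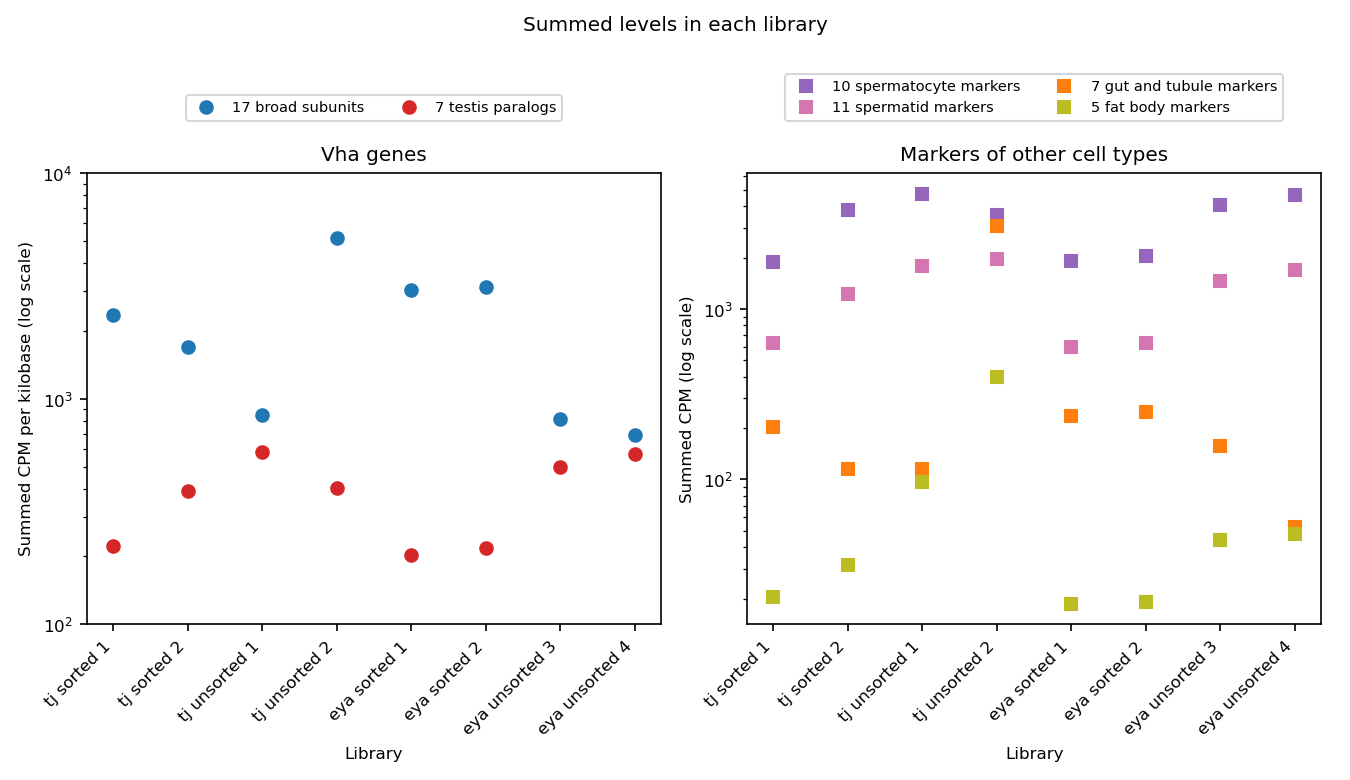
Summed levels in each library on log axes, with the Vha classes on the left (CPM per kilobase) and marker lists of other cell types on the right (CPM). Testis paralogs lie closest to the broad subunits in tj unsorted 1 and the 2 eya unsorted libraries, and gut and tubule markers are highest in tj unsorted 2 at 3053 CPM.

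Gene models were taken from the Ensembl annotation of the dm6 assembly, which is also the build in the submitters' processing notes. All 32 genes were placed, 11 of them on 3R, 8 on 2R, 6 on 2L, 5 on 3L and 2 on X. Among the testis paralogs, 6 of 7 had at most 3 exons in any transcript and 3 of 7 were single-exon genes, against 7 of 17 and 2 of 17 broad subunits. Several paralogs lie side by side. Vha68-2 (chr2L:12974322-12978607, plus strand) is followed by the testis paralog Vha68-3 (chr2L:12978786-12981293, plus strand), and Vha68-1 (chr2L:13000770-13004107, minus strand) lies further along the same arm. Vha100-4 (chr3R:18386841-18389805) neighbours Vha100-2 (chr3R:18390323-18399169), both on the minus strand, and Vha16-3 (chr3L:11473291-11473972) neighbours Vha16-2 (chr3L:11474958-11475552), both on the plus strand. For 9 members a gene on the opposite strand overlaps the gene model, namely Vha44, Vha100-1, Vha100-2, VhaPPA1-2, Vha100-3, Vha16-2, Vha100-4, Vha100-5 and VhaM9.7-c. The library kit kept strand, but the sources used here give no setting for strand or for reads shared between paralogs, so counts of these 9 genes and splits between near-identical paralogs are uncertain to that extent.

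In the eya comparison most broad subunits and the testis paralogs moved in opposite directions. The classes were chosen with earlier results of these data known, so this split is a description and not independent support for them. In eya sorted cells, 8 of the 32 members were called higher (25%, close to the 28% of all tested genes) and 11 were called lower (34.4%, against 20% of all tested genes), by edgeR's quasi-likelihood test at an adjusted p below 0.05. All 8 that rose were broad subunits, 8 of 17 (47.1%), whereas 6 of the 7 testis paralogs (85.7%), 4 of the 8 other paralogs (50%) and 1 broad subunit, Vha68-1, fell. The median log2 fold change, eya sorted over eya unsorted, was 2.04 over the broad subunits, -1.59 over the testis paralogs and -1.16 over the other paralogs, against -0.09 over all tested genes. Without overlap between the groups, 16 members were higher, against 42% of all tested genes, and 15 were lower, against 44.3%. VhaM9.7-c was the single member whose groups overlapped.

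The calls depended on which libraries shared the fit, since the spread was estimated over all 4 groups. With tj unsorted 2 left out, 16 members were called higher (34.3% of all tested genes) and 13 lower (33.1%), and these included all 19 calls made with every library; the same counts were reached without tj unsorted 1 (against 35% and 31.8%). Without eya sorted 1, 2 members were called higher (against 17.2% of all tested genes in the same fit) and 1 lower (against 3.4%). Leaving out eya sorted 2 gave 1 higher (against 14.2%) and 0 lower (against 1.37%). Leaving out eya unsorted 3 gave 1 higher (against 13.3%) and 2 lower (against 4.59%), and leaving out eya unsorted 4 gave 0 higher (against 9.21%) and 1 lower (against 1.86%). Without any 1 of the 4 eya libraries, the higher calls were thus a smaller share of the members than of all genes, and the lower calls were close to the background. The counts were 5 higher and 10 lower without tj sorted 1 (against 26.2% and 18.5%) and again without tj sorted 2 (against 25.5% and 19.4%). On the deposited RPM values, limma on log2(RPM + 1) moved the median of all genes by -0.65, gave 40.5% of its calls as higher against 58.33% in edgeR, and called 3 members higher (against 7.24% of all tested genes) and 4 lower (against 10.6%). No member called in edgeR changed direction in any of these settings.

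**Figure D3:**
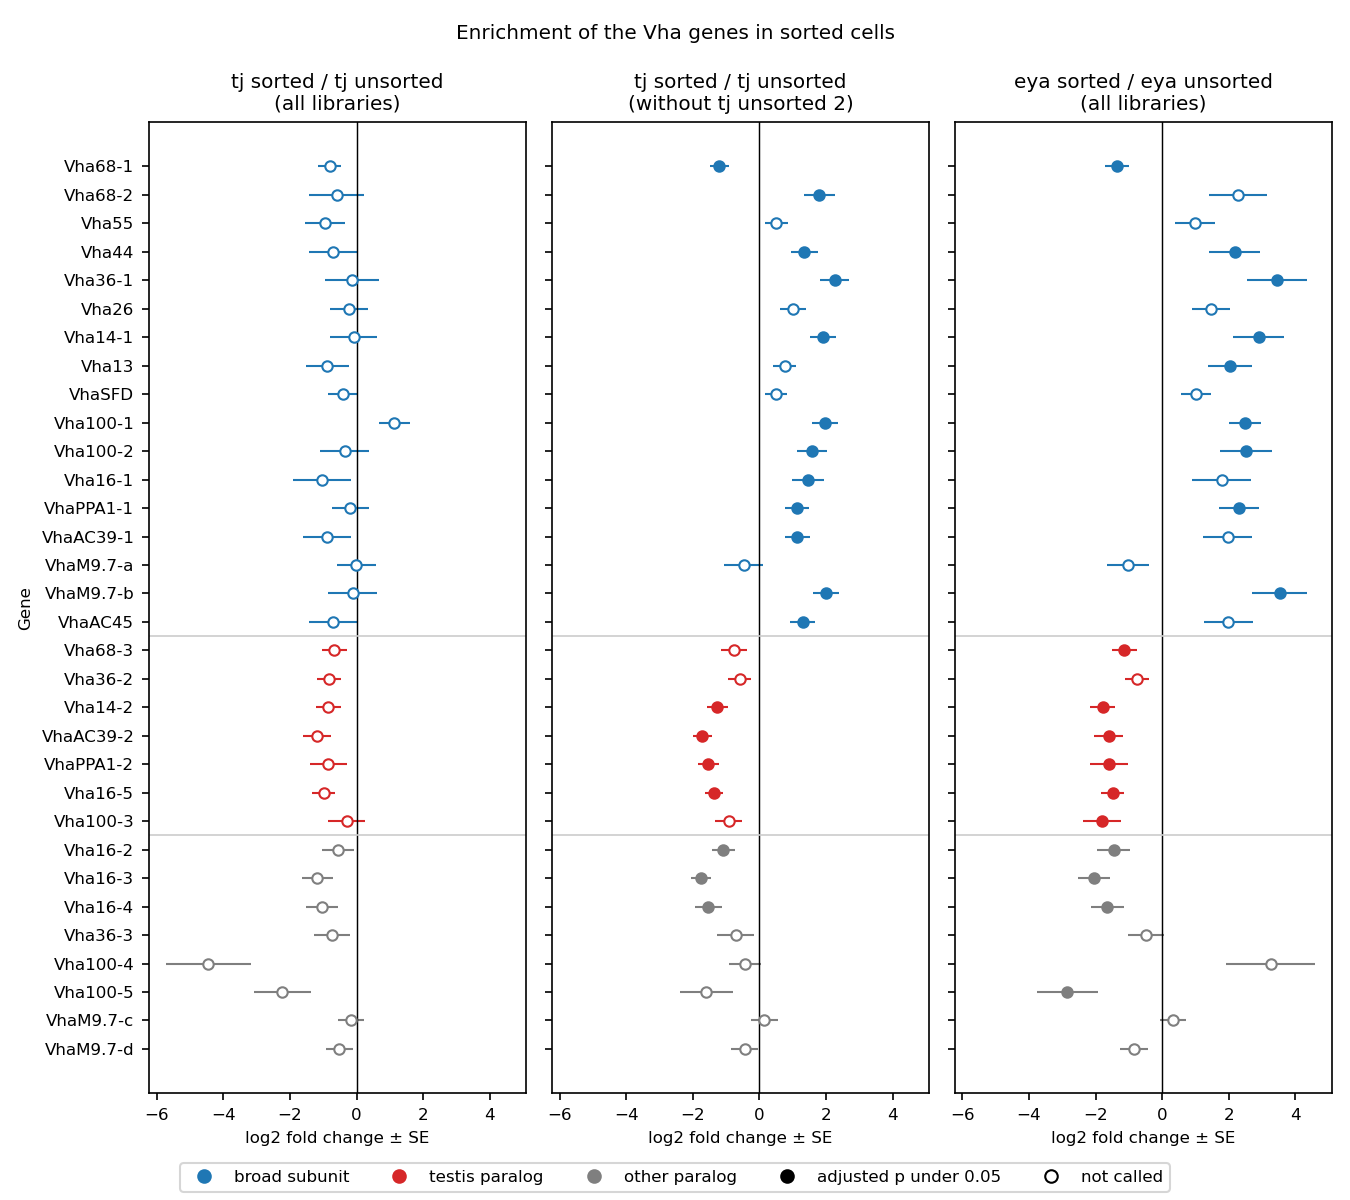
Log2 fold change ± SE (horizontal axis) of each Vha gene (rows) in sorted over unsorted cells, for the tj comparison with all libraries, for the tj comparison without tj unsorted 2, and for the eya comparison. Filled points have an adjusted p below 0.05: none with all libraries in the tj comparison, 11 higher and 8 lower without tj unsorted 2, and 8 higher and 11 lower in the eya comparison.

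Among the V1 subunits, the broad genes of the central stalk had the largest log2 fold changes. Vha36-1, the broad D subunit, had 237 and 319 CPM in eya sorted libraries, against 30.9 and 20.2 CPM in eya unsorted libraries. Its log2 fold change was 3.45 ± 0.89 (SE, n = 2 libraries per group) with an edgeR adjusted p of 0.0162. The other broad central stalk gene, Vha14-1 for subunit F, had 216 and 264 CPM in eya sorted libraries, against 33.1 and 31.2 CPM in eya unsorted libraries, a log2 fold change of 2.90 ± 0.77 (adjusted p = 0.0176). Both were above all unsorted values of their genotype by several fold, and both kept their call in limma on log2(RPM + 1). The testis paralogs of these subunits ran the other way. Vha14-2 had 28.96 and 22.1 CPM in eya sorted libraries, against 86.4 and 89.8 CPM in eya unsorted libraries, and fell, with a log2 fold change of -1.79 ± 0.38 (adjusted p = 0.00822). For Vha36-2 the values were 53.6 and 59.1 CPM in eya sorted libraries, against 89.4 and 103 CPM in eya unsorted libraries, a log2 fold change of -0.77 ± 0.36 that was not called (adjusted p = 0.102), although its groups did not overlap. The remaining D paralog, Vha36-3, was low throughout, at 3.0 and 3.46 CPM in eya sorted libraries, against 4.42 and 4.63 CPM in eya unsorted libraries, and was not called (adjusted p = 0.471).

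Of the catalytic head, the A subunit is encoded by 3 genes that did not move together. Vha68-2 had 555 and 477 CPM in eya sorted libraries, against 135 and 78.3 CPM in eya unsorted libraries, a log2 fold change of 2.27 ± 0.87 just short of the threshold (adjusted p = 0.0572). Vha68-3, its testis paralog and neighbour, had 179 and 205 CPM in eya sorted libraries, against 395 and 453 CPM in eya unsorted libraries, and fell, with a log2 fold change of -1.14 ± 0.38 (adjusted p = 0.0365). Vha68-1, listed among the broad genes, had 22.3 and 21.8 CPM in eya sorted libraries, against 53.4 and 59.7 CPM in eya unsorted libraries, and also fell, with a log2 fold change of -1.36 ± 0.35 (adjusted p = 0.0159). Vha68-1 thus had the direction of the testis paralogs in this comparison. Vha55, the sole B subunit gene, had 466 and 422 CPM in eya sorted libraries, against 228 and 221 CPM in eya unsorted libraries. The groups did not overlap, but the log2 fold change of 0.98 ± 0.60 was not called (adjusted p = 0.198).

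The stalk and regulatory subunits with a single fly gene were all higher in both eya sorted libraries than in either unsorted one, and 2 of the 4 were called. Vha44, subunit C, had 244 and 275 CPM in eya sorted libraries, against 66.3 and 48.6 CPM in eya unsorted libraries, a log2 fold change of 2.18 ± 0.77 (adjusted p = 0.0456). Vha13, subunit G, had 325 and 391 CPM in eya sorted libraries, against 82.5 and 92.3 CPM in eya unsorted libraries, a log2 fold change of 2.04 ± 0.66 (adjusted p = 0.0348). Vha26, subunit E, had 899 and 756 CPM in eya sorted libraries, against 302 and 300.0 CPM in eya unsorted libraries. Its log2 fold change of 1.46 ± 0.57 was not called (adjusted p = 0.0628). VhaSFD, subunit H, had 262 and 227 CPM in eya sorted libraries, against 119.9 and 123 CPM in eya unsorted libraries, and was not called (1.01 ± 0.46, adjusted p = 0.0971). Per kilobase, Vha13 and Vha14-1 were the highest V1 genes of eya sorted cells, at 345 and 415 and at 328 and 401 CPM per kilobase, and the 2 genes did not differ beyond their spread.

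In the V0 sector, an e subunit gene had the highest log2 fold change of all 32 members. VhaM9.7-b had 230.0 and 246 CPM in eya sorted libraries, against 23.3 and 18.2 CPM in eya unsorted libraries. Its log2 fold change was 3.52 ± 0.82 (adjusted p = 0.0113), and it kept its call in limma on log2(RPM + 1). VhaM9.7-d, another e paralog, had 19.9 and 20.8 CPM in eya sorted libraries, against 35.6 and 38.3 CPM in eya unsorted libraries, with no overlap between groups but no call (-0.86 ± 0.42, adjusted p = 0.115). VhaM9.7-c had 7.76 and 5.28 CPM in eya sorted libraries, against 4.54 and 5.83 CPM in eya unsorted libraries, and these groups overlapped. VhaM9.7-a had few reads, with 7 and 14 reads in eya sorted libraries, against 24 and 39 reads in eya unsorted libraries. It was not called (-1.02 ± 0.62, adjusted p = 0.194).

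The 5 genes for the a subunit, which carries the proton path and directs the pump to its membrane, fell on both sides. Vha100-1, known from the synaptic vesicles of neurons, had 243 and 245 CPM in eya sorted libraries, against 48.5 and 38.7 CPM in eya unsorted libraries, a log2 fold change of 2.48 ± 0.48 (adjusted p = 0.00582), the smallest adjusted p of any member. Vha100-2 had 333 and 303 CPM in eya sorted libraries, against 73.1 and 38.2 CPM in eya unsorted libraries, a log2 fold change of 2.51 ± 0.77 (adjusted p = 0.0293). Both rose in eya sorted cells. The testis paralog Vha100-3 had 99.8 and 94.5 CPM in eya sorted libraries, against 323 and 359 CPM in eya unsorted libraries, and fell, with a log2 fold change of -1.81 ± 0.56 (adjusted p = 0.0309). Vha100-4 had 8.17 and 4.85 CPM in eya sorted libraries, against 0.934 and 0.445 CPM in eya unsorted libraries, from 15 and 10 reads in the unsorted libraries, and was not called (3.25 ± 1.33, adjusted p = 0.0703). Vha100-5 had 1.97 and 0.546 CPM in eya sorted libraries, against 14.7 and 2.76 CPM in eya unsorted libraries, and was called lower, with a log2 fold change of -2.85 ± 0.92 (adjusted p = 0.0341). The 2 eya unsorted libraries differed from each other more for this gene than for any of the other called members, and without eya unsorted 3 its log2 fold change was -1.20 (adjusted p = 0.276).

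The proton ring gave the same division. Vha16-1, the broad c subunit, had 1244 and 1042 CPM in eya sorted libraries, against 416 and 246 CPM in eya unsorted libraries, a log2 fold change of 1.79 ± 0.89 that was not called (adjusted p = 0.121). The testis paralog Vha16-5 had 9.52 and 10.3 CPM in eya sorted libraries, against 26.5 and 29.1 CPM in eya unsorted libraries, and fell (-1.48 ± 0.35, adjusted p = 0.0113). The remaining c genes, Vha16-2, Vha16-3 and Vha16-4, fell too. Vha16-2 had 8.17 and 9.28 CPM in eya sorted libraries, against 23.8 and 24.3 CPM in eya unsorted libraries (-1.46 ± 0.49, adjusted p = 0.04). Vha16-3, its neighbour, had 5.69 and 5.28 CPM in eya sorted libraries, against 20.2 and 25.3 CPM in eya unsorted libraries (-2.05 ± 0.49, adjusted p = 0.0121). Vha16-4 had 1.76 and 1.76 CPM in eya sorted libraries, against 5.60 and 5.47 CPM in eya unsorted libraries (-1.65 ± 0.50, adjusted p = 0.0282). All 4 of these c genes were thus lower in both eya sorted libraries than in either unsorted library.

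The c" and d subunits have 1 broad and 1 testis gene each. VhaPPA1-1, the broad c" gene, had 275 and 331 CPM in eya sorted libraries, against 63.6 and 59.1 CPM in eya unsorted libraries, a rise of log2 2.31 ± 0.59 (adjusted p = 0.0156). Its testis paralog VhaPPA1-2 had 11.1 and 14.4 CPM in eya sorted libraries, against 34.8 and 42.2 CPM in eya unsorted libraries, and fell (-1.59 ± 0.57, adjusted p = 0.0474), a call that was lost when mitochondrial genes were left out of the library sizes (adjusted p = 0.0531). VhaAC39-1, the broad d gene, had 209.9 and 232 CPM in eya sorted libraries, against 64.3 and 49.1 CPM in eya unsorted libraries and was just short of a call (1.96 ± 0.75, adjusted p = 0.0569). The d testis paralog VhaAC39-2 had 7.45 and 7.65 CPM in eya sorted libraries, against 20.9 and 25.1 CPM in eya unsorted libraries, and fell (-1.61 ± 0.43, adjusted p = 0.0189). VhaAC45, the accessory subunit, had 275 and 280.0 CPM in eya sorted libraries, against 77.3 and 62.8 CPM in eya unsorted libraries, again just short of a call (1.99 ± 0.75, adjusted p = 0.0549). For both subunits the broad and the testis gene therefore lay on opposite sides of zero.

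Markers of the germline moved with the testis paralogs. Of 10 spermatocyte markers, 0 were called higher and 9 lower in eya sorted cells, and their sum was 1908 and 2035 CPM in eya sorted libraries, against 4060.2 and 4662 CPM in eya unsorted libraries. Of 11 spermatid markers, 0 were called higher and 8 lower, with sums of 600.4 and 634 CPM in eya sorted libraries, against 1466 and 1698 CPM in eya unsorted libraries. None of these markers was at 0 reads in any library. Their medians of -1.94 and -1.40 lay beside the median of -1.59 of the testis paralogs. Gut and tubule markers summed to 236 and 247 CPM in eya sorted libraries, against 158 and 52.3 CPM in eya unsorted libraries, with 1 of 7 called higher and 0 lower. Of these markers, only Drip was higher in both eya sorted libraries than in either eya unsorted library. Drip had 153 and 164 CPM in eya sorted libraries, against 48.4 and 42.5 CPM in eya unsorted libraries. Among the other lists, 0 of 6 early germline markers were called higher and 3 lower, 0 of 6 accessory gland markers higher and 5 lower, and 1 of 8 muscle markers higher and 3 lower. For 5 hemocyte markers the counts were 1 higher and 0 lower, for 4 pigment cell markers 3 higher and 0 lower, and for 5 fat body markers 0 higher and 1 lower. The part of any of these cells in the result was not tested.

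In the tj comparison no member was called in either direction with all libraries (edgeR, against 8.98% of all tested genes called higher and 2.38% called lower). At an unadjusted p below 0.05 there were 8 of the 32 members, against 30.4% of all tested genes, a smaller share among the members. DESeq2 called 0 members higher (against 11.7% of all tested genes) and 4 lower (against 8.42%), namely VhaAC39-2, Vha16-5, Vha100-4 and Vha100-5. In limma on log2(RPM + 1), 0 members were called higher (against 2.69%) and 1, Vha100-4, lower (against 2%). The share of higher calls over all genes was 79.06% in edgeR, 58.18% in DESeq2 and 57.39% in limma, where 6 broad subunits changed direction. The median log2 fold change, tj sorted over tj unsorted, was -0.40 over the broad subunits and -0.85 over the testis paralogs, against -0.08 over all tested genes. Without overlap between groups, 1 member was higher (against 32.9% of all tested genes) and 11 were lower (against 22.9%). The member that was higher was Vha100-1.

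The outcome turned on the library tj unsorted 2. Without it, 11 members were called higher (34.4%, against 25% of all tested genes) and 8 lower (25%, against 10.8%). All 11 were broad subunits, 11 of 17 (64.7%), and the 8 were 4 of 7 testis paralogs, 3 of 8 other paralogs and Vha68-1. The median log2 fold change was then 1.30 over the broad subunits and -1.26 over the testis paralogs, against -0.01 over all tested genes. In that fit the spread of the single library tj unsorted 1 is taken from the other groups. With tj unsorted 1 left out in place of tj unsorted 2, 12 members were called lower (against 13.4% of all tested genes), 9 of them broad subunits, and none higher. The tj libraries numbered 1 carry 6-base indexes in their labels and all other libraries 8-base indexes. Within number 1, tj sorted was above tj unsorted for 15 of 17 broad subunits (median log2 ratio 1.55) and for 0 of 7 testis paralogs (median -1.48). Within number 2, it was above for 2 of 17 broad subunits (median -1.25) and for 2 of 7 testis paralogs (median -0.22).

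The per-library values show where the groups crossed. Vha16-1 had 1181 and 683 CPM in tj sorted libraries, against 333 and 3509.8 CPM in tj unsorted libraries. Its log2 fold change was -1.04 ± 0.87 (adjusted p = 0.417) with all libraries and 1.46 ± 0.49 (adjusted p = 0.0337) without tj unsorted 2. The second unsorted library was above both sorted libraries, and the first was below both. The same was true of Vha68-2, with 495 and 320.2 CPM in tj sorted libraries, against 116 and 1122 CPM in tj unsorted libraries (-0.60 ± 0.83 and adjusted p = 0.621 with all libraries, 1.80 ± 0.46 and adjusted p = 0.0102 without tj unsorted 2). Vha36-1 had 157 and 121 CPM in tj sorted libraries, against 28.6 and 279 CPM in tj unsorted libraries, with -0.15 ± 0.81 (adjusted p = 0.905) with all libraries and 2.26 ± 0.43 (adjusted p = 0.00187) without tj unsorted 2. Vha14-1 had 157 and 111 CPM in tj sorted libraries, against 35.1 and 251 CPM in tj unsorted libraries (-0.09 ± 0.71 and adjusted p = 0.933 with all libraries, 1.91 ± 0.38 and adjusted p = 0.00234 without tj unsorted 2). In each of these genes tj unsorted 2 was the highest of the 4 tj libraries. The sum of gut and tubule markers was also highest in that library, and their part in these levels was not tested.

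Vha100-1 was the exception among the broad a subunits. It had 195 and 133 CPM in tj sorted libraries, against 41.3 and 108 CPM in tj unsorted libraries, so both sorted libraries stood above both unsorted ones. Its log2 fold change was 1.13 ± 0.46 (adjusted p = 0.141) with all libraries and 1.97 ± 0.39 (adjusted p = 0.00236) without tj unsorted 2. The ratio was 2.24 within number 1 and 0.30 within number 2, both on the log2 scale. Vha100-2 had 242 and 199 CPM in tj sorted libraries, against 72.8 and 494 CPM in tj unsorted libraries, and VhaM9.7-b had 136 and 93.7 CPM in tj sorted libraries, against 28.1 and 222 CPM in tj unsorted libraries. Both were called higher without tj unsorted 2, at 1.57 ± 0.44 (adjusted p = 0.0153) and 2.01 ± 0.39 (adjusted p = 0.00209), against -0.36 ± 0.73 (adjusted p = 0.736) and -0.12 ± 0.74 (adjusted p = 0.914) with all libraries.

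Of the other V0 genes of the common pump, VhaPPA1-1 had 203 and 154 CPM in tj sorted libraries, against 80.6 and 326 CPM in tj unsorted libraries, and VhaAC39-1 had 147 and 109 CPM in tj sorted libraries, against 57.2 and 417 CPM in tj unsorted libraries. VhaAC45 had 232 and 164 CPM in tj sorted libraries, against 79.2 and 568 CPM in tj unsorted libraries. All 3 were called higher without tj unsorted 2, at log2 fold changes of 1.12 ± 0.36, 1.14 ± 0.37 and 1.30 ± 0.38 (adjusted p = 0.0291, 0.03 and 0.0178). With all libraries the 3 values were -0.19 ± 0.56, -0.89 ± 0.73 and -0.71 ± 0.72 (adjusted p = 0.825, 0.408 and 0.502). Among V1 genes, Vha44 had 207 and 137 CPM in tj sorted libraries, against 66.5 and 494 CPM in tj unsorted libraries, and was called without tj unsorted 2 (1.35 ± 0.40, adjusted p = 0.0197), against -0.70 ± 0.74 (adjusted p = 0.516) with all libraries. Vha55 had 395 and 321 CPM in tj sorted libraries, against 249 and 1144 CPM in tj unsorted libraries, and Vha26 had 751 and 546 CPM in tj sorted libraries, against 317 and 1208 CPM in tj unsorted libraries. Vha13 had 208 and 174 CPM in tj sorted libraries, against 111 and 595 CPM in tj unsorted libraries, and VhaSFD had 207 and 179 CPM in tj sorted libraries, against 135 and 377 CPM in tj unsorted libraries. These 4 genes were not called with or without tj unsorted 2, Vha26 missing the threshold by the least (adjusted p = 0.0553 without it).

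For all 7 testis paralogs the log2 fold change was negative with all libraries and without tj unsorted 2. Without tj unsorted 1 it was 0.39 for VhaPPA1-2 and 0.71 for Vha100-3, and Vha100-3 was also above 0 without tj sorted 1. VhaAC39-2 had 7.41 and 7.13 CPM in tj sorted libraries, against 23.4 and 9.66 CPM in tj unsorted libraries, a log2 fold change of -1.19 ± 0.43 (adjusted p = 0.107) with all libraries and -1.71 ± 0.28 (adjusted p = 0.000821) without tj unsorted 2. Vha16-5 had 12.2 and 12.9 CPM in tj sorted libraries, against 31.8 and 18.2 CPM in tj unsorted libraries (-0.995 ± 0.34 and adjusted p = 0.095 with all libraries, -1.37 ± 0.28 and adjusted p = 0.00257 without tj unsorted 2). Vha14-2 had 31.5 and 43.4 CPM in tj sorted libraries, against 88.1 and 47.4 CPM in tj unsorted libraries (-0.86 ± 0.37 and adjusted p = 0.163 with all libraries, -1.26 ± 0.30 and adjusted p = 0.00701 without tj unsorted 2). All 3 had both sorted libraries below both unsorted ones. The A and D paralogs, Vha68-3 and Vha36-2, did as well. Vha68-3 had 187 and 350.5 CPM in tj sorted libraries, against 447 and 407 CPM in tj unsorted libraries, and Vha36-2 had 50.6 and 91.5 CPM in tj sorted libraries, against 105 and 146 CPM in tj unsorted libraries. By contrast VhaPPA1-2 had 11.98 and 19.1 CPM in tj sorted libraries, against 44.2 and 11.9 CPM in tj unsorted libraries, and Vha100-3 had 133 and 289 CPM in tj sorted libraries, against 391 and 128 CPM in tj unsorted libraries, where the libraries overlapped. In the fit that lacks tj unsorted 2, Vha14-2, VhaAC39-2, VhaPPA1-2 and Vha16-5 were called lower, and Vha68-3, Vha36-2 and Vha100-3 were not (adjusted p = 0.133, 0.193 and 0.0888). For VhaPPA1-2 the log2 fold change was -0.85 ± 0.56 (adjusted p = 0.312) with all libraries and -1.53 ± 0.33 (adjusted p = 0.00349) without tj unsorted 2. Spermatocyte markers summed to 1895 and 3821 CPM in tj sorted libraries, against 4731 and 3537 CPM in tj unsorted libraries. Mst87F had 766 and 1557 CPM there, and every other marker of the list was lower in tj unsorted 2 than in tj unsorted 1. With all libraries, edgeR called 0 of 10 spermatocyte and 0 of 6 early germline markers. Lower calls (2.38% of all tested genes) took in 5 of 5 fat body, 6 of 8 muscle and 2 of 11 spermatid markers. They also took in 2 of 5 hemocyte, 2 of 6 accessory gland and 1 of 7 gut and tubule markers. Of 4 pigment cell markers, 1 was called higher (against 8.98%). The part of these cells in the result was not tested.

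Vha68-1, listed as broad, kept the direction of the testis paralogs here too, with 25.2 and 28.7 CPM in tj sorted libraries, against 60.98 and 33.5 CPM in tj unsorted libraries (-0.81 ± 0.34 and adjusted p = 0.155 with all libraries, -1.20 ± 0.28 and adjusted p = 0.00544 without tj unsorted 2). Vha16-2 had 8.54 and 17.05 CPM in tj sorted libraries, against 26.7 and 10.8 CPM in tj unsorted libraries, and Vha16-3 had 7.26 and 10.5 CPM in tj sorted libraries, against 29.4 and 11.1 CPM in tj unsorted libraries. Vha16-4 had 2.47 and 3.68 CPM in tj sorted libraries, against 8.82 and 3.77 CPM in tj unsorted libraries. These 3 c genes were, without tj unsorted 2, called lower, at -1.08 ± 0.35, -1.74 ± 0.30 and -1.53 ± 0.41 (adjusted p = 0.0316, 0.00108 and 0.0119), against -0.55 ± 0.48, -1.19 ± 0.47 and -1.03 ± 0.48 (adjusted p = 0.439, 0.134 and 0.182) with all libraries. The e paralog VhaM9.7-c had 6.59 and 5.73 CPM in tj sorted libraries, against 5.47 and 8.40 CPM in tj unsorted libraries, and VhaM9.7-d had 15.4 and 38.7 CPM in tj sorted libraries, against 36.1 and 41.6 CPM in tj unsorted libraries. VhaM9.7-a had 12 and 44 reads in tj sorted libraries, against 49 and 10 reads in tj unsorted libraries. Vha36-3 had 1.95 and 6.70 CPM in tj sorted libraries, against 7.11 and 7.54 CPM in tj unsorted libraries, and Vha100-5 had 2.92 and 1.70 CPM in tj sorted libraries, against 6.77 and 14.9 CPM in tj unsorted libraries. None of these last 5 genes was called with or without tj unsorted 2.

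Vha100-4, a further a subunit gene next to Vha100-2, had the widest spread of all. It had 7.49 and 5.54 CPM in tj sorted libraries, against 8.63 and 276 CPM in tj unsorted libraries, and 8.17 and 4.85 CPM in eya sorted libraries, against 0.934 and 0.445 CPM in eya unsorted libraries. A single library, tj unsorted 2, was thus far above the other 7. The log2 fold change of tj sorted over tj unsorted was -4.45 ± 1.27 (adjusted p = 0.0579) with all libraries and -0.44 ± 0.47 (adjusted p = 0.47) without tj unsorted 2. Gut and tubule markers peaked in the same library at 3053 CPM, and their part in the Vha100-4 level was not tested.

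The sorted populations were then set against each other. No member was called between tj sorted and eya sorted cells by edgeR, which called 0.0239% of all tested genes higher and 0.0875% lower. There were 0 members at an unadjusted p below 0.05, against 10.8% of all tested genes, and 0 members called by DESeq2, against 1.68%. The median log2 fold change, tj sorted over eya sorted, was -0.53 over the broad subunits and 0.34 over the testis paralogs, against 0.12 over all tested genes. Without overlap, 13 of 17 broad subunits were lower, within 14 of all 32 members (against 27.6% of all tested genes), and 7 members were higher (against 29.3%). The direction of 8 members, 6 of them broad, changed in limma on log2(RPM + 1), where the median of all genes moved by 0.46.

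The lowest value belonged to VhaM9.7-b, with 136 and 93.7 CPM in tj sorted libraries, against 230.0 and 246 CPM in eya sorted libraries, a log2 fold change of -1.05 ± 0.75 (adjusted p = 0.555). It was the single member called without tj unsorted 2 (-1.09 ± 0.29, adjusted p = 0.047, against 5.89% of all tested genes called in either direction). The highest value belonged to the testis paralog Vha100-3, with 133 and 289 CPM in tj sorted libraries, against 99.8 and 94.5 CPM in eya sorted libraries (1.12 ± 0.55, adjusted p = 0.482). The library tj sorted 2 was the highest of the sorted libraries for this gene, and spermatocyte markers were also highest there, at 3821 CPM, against 1895 CPM in tj sorted 1 and 1908 and 2035 CPM in eya sorted libraries. Their part in the Vha100-3 level was not tested.

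The unsorted suspensions of the 2 genotypes were compared as well. No member was called between tj unsorted and eya unsorted libraries by edgeR, which called 0.0239% of all tested genes higher and 0.0477% lower. Unadjusted p-values below 0.05 were found for 15 of the 32 members, against 11.8% of all tested genes, and DESeq2 called 9 members higher (against 2.55%) and 0 lower (against 0.533%). The median log2 fold change was 2.06 over the broad subunits with all libraries and 0.09 without tj unsorted 2, against 0.14 and -0.0019 over all tested genes. For the testis paralogs it was -0.38 and 0.07. Without tj unsorted 2, Vha100-4 was the single member called (3.61 ± 0.52, adjusted p = 0.00566, against 1.24% of all tested genes called in either direction).

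Whether the 2 enrichments differed was tested as an interaction, the tj log2 fold change minus the eya log2 fold change. No gene was called by edgeR (0% of all tested genes), with 11 of the 32 members at an unadjusted p below 0.05, against 14.6% of all tested genes, while DESeq2 called 6 members, all 6 lower, against 2.67% of all genes it tested, in either direction. The median interaction was -2.83 over the broad subunits with all libraries, and -0.64 without tj unsorted 2, when none of them was called, against -0.03 and 0.14 over all tested genes. For the testis paralogs it was 0.49 and 0.21. VhaM9.7-b had the lowest value among the broad subunits, at -3.64 ± 1.08 (adjusted p = 0.33) with all libraries and -1.47 ± 0.45 (adjusted p = 0.213) without tj unsorted 2. Without that library Vha100-4 was called lower (-3.64 ± 0.66, adjusted p = 0.0342, against 0.522% of all tested genes called in either direction).

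Within a subunit family, the make-up of the transcripts can be given without any scaling between libraries, as a share of the family's CPM per kilobase. In eya sorted libraries Vha36-1 supplied 83.6 and 86.1% of the D subunit, against 28.6 and 18.6% in eya unsorted libraries, and Vha36-2 supplied 15.5 and 13.1%, against 68.02 and 77.9%. For the A subunit Vha68-2 supplied 72.8 and 67.2% in eya sorted libraries, against 22.7 and 12.9% in eya unsorted libraries. The testis gene Vha68-3 was the main A transcript of the unsorted suspension, with 68.6 and 77.5% there. For the a subunit, Vha100-1 and Vha100-2 together supplied most in eya sorted libraries, at 35.03 and 37.4% for Vha100-1 and 48.3 and 46.6% for Vha100-2. Their shares were 10.2 and 8.51% and 15.5 and 8.44% in eya unsorted libraries. The testis gene Vha100-3 supplied 15.03 and 15.1% in eya sorted libraries, against 70.9 and 82.3% in eya unsorted libraries.

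Central stalk, ring and small subunits differed in the share of the testis gene. Vha14-2 supplied 5.31 and 3.39% of the F subunit in eya sorted libraries, against 52.2 and 54.7% in eya unsorted libraries. VhaPPA1-2 supplied 7.49 and 8.03% of c" in eya sorted libraries, against 52.4 and 58.96% in eya unsorted libraries, and VhaAC39-2 supplied 4.90 and 4.57% of d, against 32.1 and 42.6%. In the c family the broad Vha16-1 kept 54.2 and 38.7% in eya unsorted libraries, where Vha16-2, Vha16-3 and Vha16-5 supplied 12.4% to 19.2% each. It supplied 91.5 and 89.4% in eya sorted libraries. For the e subunit the main transcript was VhaM9.7-b in eya sorted libraries, at 78.97 and 80.4%, and VhaM9.7-d in eya unsorted libraries, at 73.0 and 76.2%. VhaM9.7-d, listed among the other paralogs, thus took a share of e in the unsorted suspension close to that of Vha68-3 in A.

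In the tj libraries the same shares split by library. Vha36-1 supplied 78.5 and 59.9% of D in tj sorted libraries, against 23.7 and 68.9% in tj unsorted libraries. Vha68-3 supplied 27.2 and 51.04% of A in tj sorted libraries, against 72.6 and 26.7% in tj unsorted libraries. Vha100-3 supplied 23.6 and 46.9% of a in tj sorted libraries, against 75.7 and 12.6% in tj unsorted libraries. In each pair the first tj unsorted library resembled the eya unsorted libraries, and the second lay with or beyond the sorted ones. Vha100-4 supplied 29.1% of a in tj unsorted 2 and at most 1.80% in any other library. The library tj sorted 2 had more of the testis genes than tj sorted 1 in all 7 families that hold one. The shares are given as a description, and no test of them was run.

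**Figure D4:**
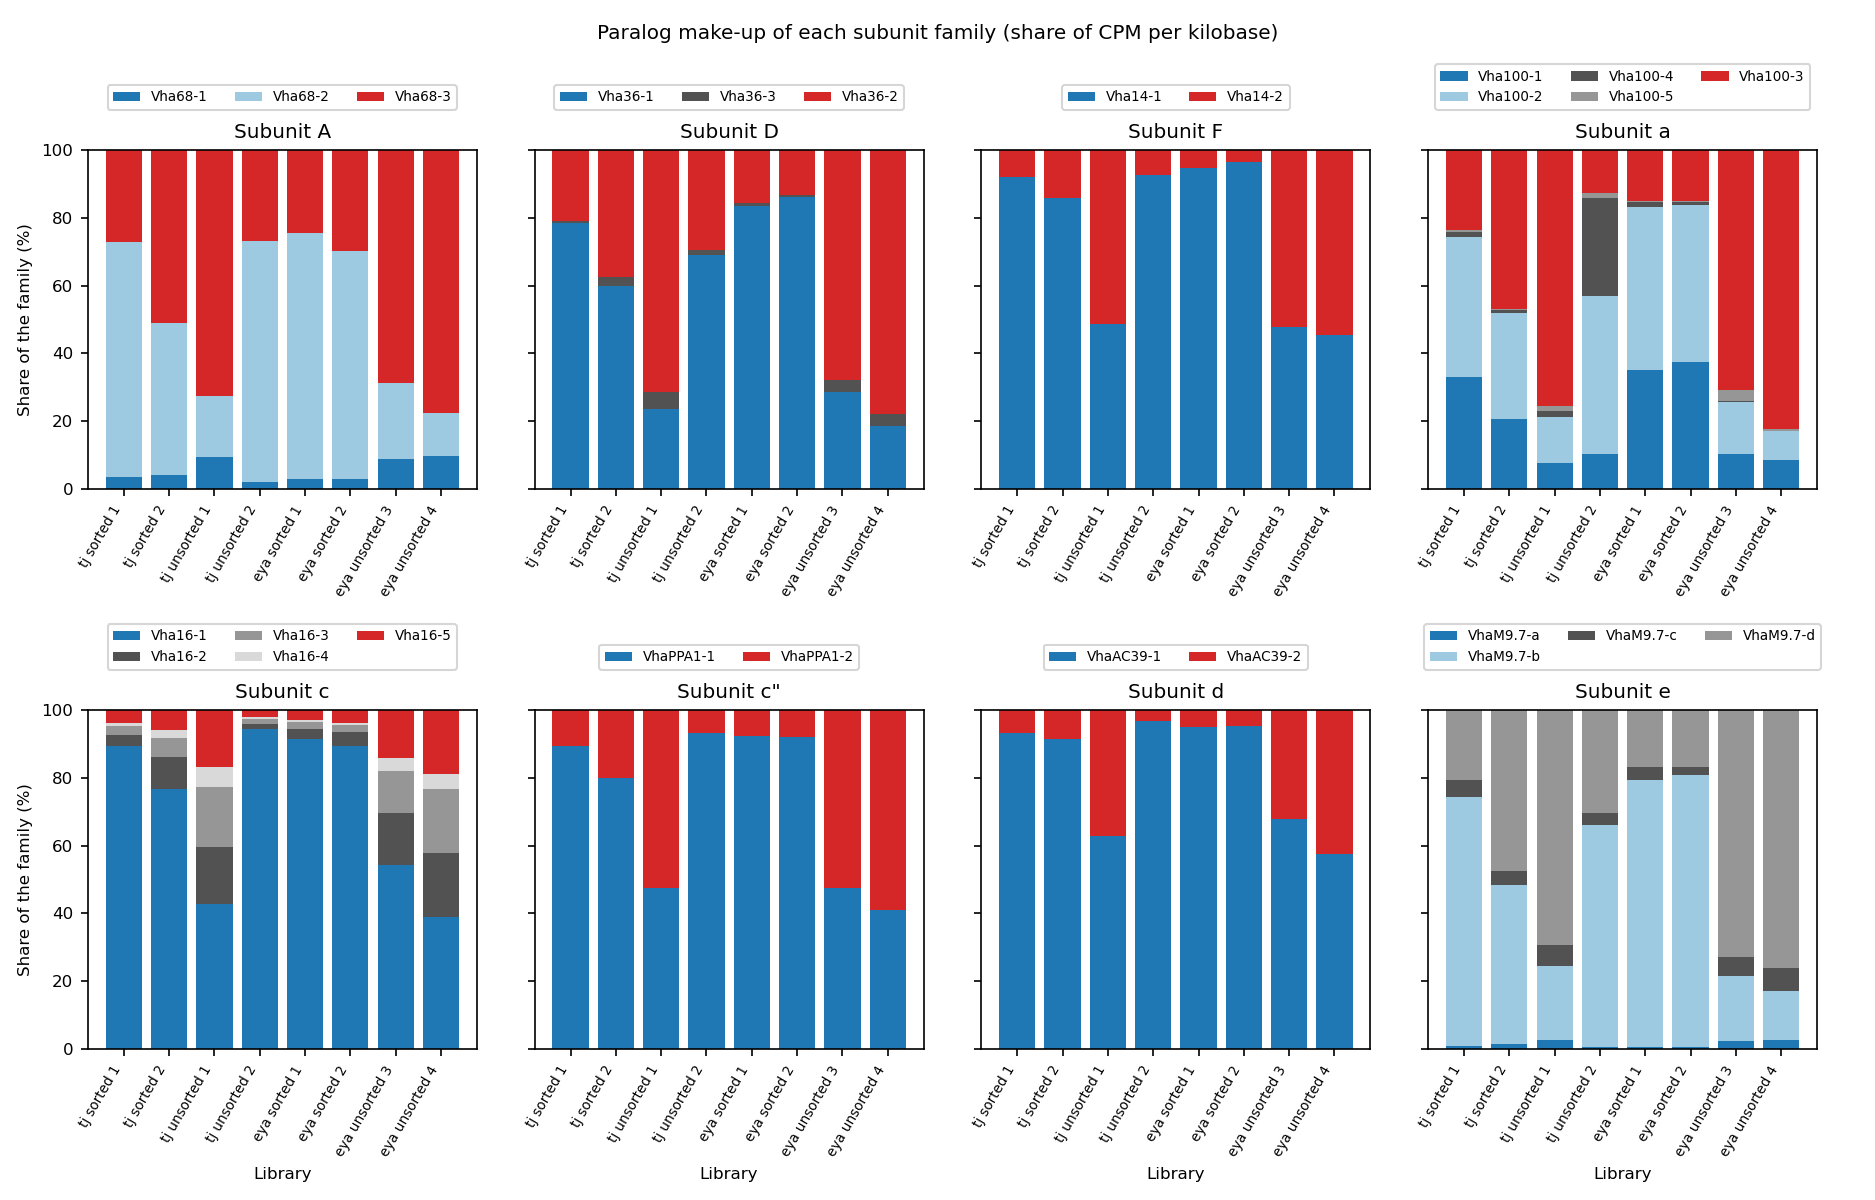
Share of each paralog (vertical axis, percent of the family's CPM per kilobase) in the 8 subunit families with more than 1 gene, for each library (horizontal axis). Testis paralogs are red, broad genes blue and other paralogs grey, and in the 7 families that hold a testis paralog its share is larger in tj unsorted 1 and the eya unsorted libraries than in either eya sorted library.

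Pair by pair, the level of the testis gene over its broad counterpart, both per kilobase, was taken as a ratio. For Vha36-2 over Vha36-1 it was 0.185 and 0.152 in eya sorted libraries, against 2.38 and 4.18 in eya unsorted libraries, and 0.264 and 0.622 in tj sorted libraries, against 3.02 and 0.428 in tj unsorted libraries. For Vha100-3 over Vha100-2 it was 0.311 and 0.324 in eya sorted libraries, against 4.58 and 9.75 in eya unsorted libraries. For Vha16-5 over Vha16-1 it stayed below 1 everywhere, at 0.0314 and 0.0407 in eya sorted libraries, against 0.261 and 0.485 in eya unsorted libraries. Between the broad a genes the groups overlapped, with Vha100-1 over Vha100-2 at 0.725 and 0.804 in eya sorted libraries, against 0.659 and 1.01 in eya unsorted libraries.

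Genes that work with the pump were described from lists of their own. In eya sorted cells, 10 of 12 measured genes for assembly and regulation were called higher (against 28% of all tested genes). Of the 12, 0 were called lower (against 20%), and the median log2 fold change was 2.13. In tj sorted cells 1 was called higher (against 8.98%) and 0 lower (against 2.38%), with a median of 0.65. Without tj unsorted 2 the median in tj sorted cells was 1.26, against -0.01 over all tested genes. The 1 called with all libraries was mtd, the fly homolog of the oxidation resistance gene OXR1, with 488 and 287 CPM in tj sorted libraries, against 76.2 and 159 CPM in tj unsorted libraries (1.72 ± 0.44 and adjusted p = 0.0431 with all libraries, 2.33 ± 0.44 and adjusted p = 0.00171 without tj unsorted 2). Lamtor4 (CG14977 in the table), a member of the Ragulator complex that docks TOR signalling to the lysosome, had 39.5 and 47.1 CPM in eya sorted libraries, against 5.73 and 5.92 CPM in eya unsorted libraries (2.89 ± 0.42, adjusted p = 0.002).

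In eya sorted cells, 10 of 14 measured lysosome and vesicle genes were called higher (against 28% of all tested genes) and 0 lower (against 20%). In tj sorted cells 3 were called higher (against 8.98%) and 0 lower (against 2.38%). Their median log2 fold change in tj sorted cells was 1.25 with all libraries and 1.95 without tj unsorted 2. Over all tested genes it was -0.08 and -0.01. The sterol carrier gene Npc2a had 242 and 386 CPM in eya sorted libraries, against 9.96 and 8.59 CPM in eya unsorted libraries (5.08 ± 0.46, adjusted p = 0.000384). It also had 126 and 89.2 CPM in tj sorted libraries, against 18.2 and 31.9 CPM in tj unsorted libraries (2.11 ± 0.41 and adjusted p = 0.0153 with all libraries, 2.54 ± 0.44 and adjusted p = 0.00109 without tj unsorted 2). The lysosomal protease gene cathD had 1116 and 1457 CPM in eya sorted libraries, against 76.4 and 70.6 CPM in eya unsorted libraries (4.13 ± 0.56, adjusted p = 0.0016). The sterol transporter gene Npc1a had 613 and 439 CPM in tj sorted libraries, against 174 and 179 CPM in tj unsorted libraries (1.58 ± 0.35 and adjusted p = 0.025 with all libraries, 1.58 ± 0.41 and adjusted p = 0.00991 without tj unsorted 2). The gene spin, for a lysosomal efflux transporter, had 396 and 279 CPM in tj sorted libraries, against 71.9 and 111 CPM in tj unsorted libraries (1.88 ± 0.42 and adjusted p = 0.0265 with all libraries, 2.21 ± 0.47 and adjusted p = 0.00336 without tj unsorted 2). For these 3 genes of the tj comparison tj unsorted 2 stayed below both sorted libraries. They were named because they were called with all libraries, so this is not set against the pump subunits. In the same list tj unsorted 2 lay above both tj sorted libraries for Nhe3, Nhe2 and ClC-a. It lay between them for Nhe1 and below both for the rest.

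The 2 remaining accessory genes lie outside the Vha names. ATP6AP2, the prorenin receptor and an accessory V0 protein, had 541 and 701 CPM in eya sorted libraries, against 95.8 and 99.5 CPM in eya unsorted libraries, and was called higher (2.67 ± 0.62, adjusted p = 0.0113). It had 395 and 278 CPM in tj sorted libraries, against 112 and 467 CPM in tj unsorted libraries. This was the same crossing by tj unsorted 2 as in most broad subunits. The log2 fold change was 0.22 ± 0.58 (edgeR adjusted p = 0.805) with all libraries and 1.56 ± 0.40 without tj unsorted 2. The AC45-related gene VhaAC45RP (CG31030 in the table) had 4.34 and 5.64 CPM in eya sorted libraries, against 11.1 and 9.43 CPM in eya unsorted libraries, and was called lower (-1.03 ± 0.34, adjusted p = 0.0362).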

How the data were processed

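Gene counts, RPM values and gene lengths of 8 Drosophila testis libraries were taken from the table deposited by the authors. Raw counts per gene were deposited beside each library's name, and FastQC, Bowtie 1.2.2, HTSeq, DESeq2 and the dm6 build are named in the submitters' processing notes, with no strand setting given in the sources used here. RPM values were deposited by the authors, who divided counts by a library total larger than the summed gene counts, and 20 other columns of values were not used.

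Counts were tested with edgeR 4.0.16 in R 4.3.3 (TMM scaling, quasi-likelihood test, 4 groups of 2 libraries, 4 residual degrees of freedom) on genes with at least 1 CPM in at least 2 libraries. A gene was called at a Benjamini-Hochberg adjusted p below 0.05 over all tested genes. CPM per kilobase used the deposited gene length. The edgeR fit of the tj comparison was checked on simulated counts with the same spread for every gene. These held no library like tj unsorted 2, so the check does not cover the spread that library brings. Alternatives were DESeq2 1.42.0, DESeq2 size factors in edgeR, no filter, the compared groups alone, a replicate block for the tj libraries, mitochondrial genes removed, limma 3.58.1 on log2(RPM + 1), and each library left out in turn. The members, their classes and the marker and pathway lists were chosen with earlier results of these data known. Every member is named, with statistics for those called, and pathway genes are named for the 4 smallest p among calls in each of the tj and eya comparisons. ATP6AP2 and VhaAC45RP were named after their values were seen. Vma12, Lamtor2 and Trpml were not analysed here.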

Additional observations from a re-analysis of the deposited data

Results flagged for a closer look

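The a subunit gene Vha100-4 had sorted and unsorted libraries in opposite order in the 2 genotypes, a difference that was not called with all libraries. Both tj sorted libraries were below both tj unsorted ones, at 7.49 and 5.54 CPM, against 8.63 and 276 CPM. Within number 1 the log2 ratio was only -0.20. Both eya sorted libraries were above both eya unsorted ones, at 8.17 and 4.85 CPM, against 0.934 and 0.445 CPM. The eya unsorted values came from 15 and 10 reads. Groups were lower without overlap for 22.9% of all tested genes in the tj comparison, and higher for 42% in the eya comparison. The interaction was -7.70 ± 1.83 on the log2 scale (SE) and was not called by edgeR's quasi-likelihood test with all libraries (adjusted p = 0.33). Without tj unsorted 2, which left 1 tj unsorted library, the interaction was -3.64 ± 0.66. The tj log2 fold change itself was then -0.44 ± 0.47. With all libraries the tj log2 fold change was not called by edgeR (adjusted p = 0.0579).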

How the results depend on the processing

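The counts of members called moved with the tool, the libraries in the fit and the scale, and the cause was not tested. Calls over all genes, in either direction, moved too. In eya sorted cells they were 6714 in DESeq2 (56.37% higher), 8933 in the compared groups alone (50.98%) and 2247 in limma (40.5%). DESeq2 called 11 members lower there. In tj sorted cells they were 2530 in DESeq2, 1652 with no low-count filter and 589 in limma. Between the unsorted groups they were 388, 48 and 171 in that order. All-gene shares for the eya fits without single libraries are given above. In eya sorted cells DESeq2 called 14 members higher, the compared groups alone 16 higher, and limma on log2(RPM + 1) 3 higher and 4 lower, with 0 to 16 higher and 0 to 13 lower when single libraries were left out. In tj sorted cells DESeq2 called 4 lower, no low-count filter 1 lower and limma 1 lower, with 0 to 11 higher and 0 to 12 lower when single libraries were left out. Between tj sorted and eya sorted cells the compared groups alone called 1 higher and 1 lower, beside 1275 genes called in either direction. Between tj unsorted and eya unsorted libraries DESeq2 called 9 higher, no low-count filter 1 and limma 1, with 0 to 16 higher and 0 to 5 lower when single libraries were left out. For the interaction DESeq2 called 6 lower, against 2.67% of all genes it tested, in either direction. Limma called 1 lower, beside 51 genes called in either direction. The counts also moved when single libraries were left out. Of the tj log2 fold changes, 10 turned to called rises without tj unsorted 2. From the fit without tj unsorted 1 to that without tj unsorted 2, they ranged from -1.47 to 1.80 for Vha68-2, -1.53 to 1.35 for Vha44, -1.01 to 2.26 for Vha36-1, -0.91 to 1.91 for Vha14-1, -1.17 to 1.57 for Vha100-2, -1.92 to 1.46 for Vha16-1, -0.87 to 1.12 for VhaPPA1-1, -1.71 to 1.14 for VhaAC39-1, -0.96 to 2.01 for VhaM9.7-b and -1.53 to 1.30 for VhaAC45. Across all genes, the share of calls that were higher was 82.73% in DESeq2, 80.12% in limma and 45.83% with no filter between the unsorted groups, against 33.33% in edgeR. Between the sorted groups it was 36.96% with no filter and 55.76% in the compared groups alone, against 21.43% in edgeR. The median of all genes shifted by -0.16 between the sorted groups and by -0.13 in the interaction with DESeq2 or its size factors, by -0.13 between the unsorted groups with mitochondrial genes removed or the compared groups alone, and by -0.11 there and 0.57 in the interaction with limma.

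The labels do not say that equal numbers pair the tj libraries, and same-numbered libraries deviated in opposite directions across genes (r = -0.35). A replicate block for the tj libraries gave 0 members higher and 0 lower in the tj comparison, beside 1190 of 12570 tested genes called. It turned the direction of 8 uncalled broad members (Vha68-2, Vha36-1, Vha26, Vha14-1, Vha100-2, VhaPPA1-1, VhaM9.7-a and VhaM9.7-b). A crossed pairing, chosen after the data were seen, gave 1 higher and 2 lower in the tj comparison, beside 2637 of 12570 tested genes called. Between the sorted groups it gave 1 higher, beside 348 genes called. In the tj comparison it turned the direction of the same 8 members. With 2 libraries per group, 1 library can decide a call, and the precision of genes with few reads, such as VhaM9.7-a with 7 to 49 reads per library, is limited by depth.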
